A study of Mus musculus with 10 samples.

Results

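DNA repair and Fanconi anaemia genes were followed after knockdown of Sfpq in Neuro-2a, a cell line from a mouse neuroblastoma. The set is a list of 37 gene symbols, of 23553 genes measured, split by role into 9 Fanconi genes, 9 homologous recombination genes, 6 end joining genes, 6 damage signalling genes and 7 mismatch and excision repair genes. All 37 symbols were found, and each is represented by the transcript row with the highest mean over the 8 RNA libraries. The knockdown group received siRNA for mSfpq and the control group siRNA for Luciferase (Luc), an enzyme that mouse cells lack. Both were transfected with RNAiMAX into cells of the same line, held in a medium with 2% serum that the labels call differentiated condition, and both carry the strain label C57BL/6+C57BL/6J+CBA. Poly(A)-selected RNA was sequenced from 3 Sfpq and 3 Luc libraries, and RNA depleted of ribosomal RNA (rRNA) from 1 Sfpq and 1 Luc library. RNA polymerase II chromatin immunoprecipitation is not analysed here.

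Cells repair DNA by several routes. The Fanconi proteins recognise strands that are covalently linked to each other, and a core complex attaches ubiquitin to the pair Fanci and Fancd2 so that the lesion can be cut out. Homologous recombination copies the lost stretch from the sister chromatid and is used in S and G2 phase, whereas end joining fuses broken ends directly and does not need a sister. Mismatch and excision repair replace wrong or damaged bases on a single strand. Sfpq binds both RNA and DNA in the nucleus, where it acts in splicing and transcription, and it has also been tied to repair of double-strand breaks.

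RPKM counts reads per kilobase of a transcript after scaling for library size, so the number of reads behind a value is not given. Sequencing depth relative to Luc replicate 1 was estimated from the ratios of low values. In the poly(A) set it ran from 0.628 in Sfpq replicate 1 to 1.28 in Luc replicate 3. In the rRNA-depleted set it was 2.65 in the Sfpq and 2.64 in the Luc library, after a doubling described with the processing. The target itself had 3.98, 4.75 and 6.47 RPKM in Sfpq replicates 1 to 3, against 56.8, 60.8 and 73.0 RPKM in Luc replicates 1 to 3, which leaves 7.97% of the Luc mean. The row used for it, 1 of 2, is a transcript that RefSeq lists as non-coding, and its other row is not reported here. In rRNA-depleted RNA Sfpq had 4.43 RPKM in the Sfpq and 30.8 RPKM in the Luc library. Its paralogues Nono (0.43, limma adjusted p = 0.0294) and Pspc1 (1.38, 2.34e-05) rose on the log2 scale, and the Nono call ended with no filter on low values (0.0600) and when Sfpq replicate 2 (0.117) or 3 (0.0990) or Luc replicate 1 (0.101) or 2 (0.0808) was left out. Of 12 sympathetic neuroblast markers, 11 averaged at least 1 RPKM, with sums of 347 to 377 RPKM in Sfpq and 368 to 418 RPKM in Luc libraries. Of 6 glial, 6 fibroblast and 5 immune markers 0 averaged 1 RPKM, and Sox10, S100b, Lum and Csf1r were among those listed at 0 in every poly(A) library. The Luc libraries of replicates 1 and 2 correlated at 0.996 across genes, while Luc replicate 3 reached 0.985 with the first and 0.979 with the second. Separate cultures are not stated for the replicates, and p-values therefore measure library spread that may be technical. In such bulk samples, fewer cells that express a gene and less RNA per cell cannot be told apart.

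The first comparison, in poly(A) RNA, asked which repair genes respond to loss of Sfpq. Of the 37 genes, 17 rose, 4 fell and 16 did not pass the test (limma on log2(RPKM + 0.5), Benjamini-Hochberg adjusted p under 0.05 over 11727 genes). Over all genes tested, 21.3% rose and 18.6% fell, against 45.9% and 10.8% of the repair genes. The 37 genes were chosen with earlier results of these data known, so their shares here and by pathway are description only. The median log2 fold change was 0.36 over the repair genes and 0.05 over all genes tested. The rises were moderate, from 1.34-fold (Palb2) to 2.18-fold (Fanci) in mean RPKM, and the falls left between 38.5% (Xrcc4) and 69.7% (Nhej1) of the Luc mean. By pathway, Fanconi and recombination genes made up 11 of the 17 rises and 0 of the 4 falls, and end joining genes 0 of the rises and 2 of the falls. The other 2 genes that fell were Rif1 and Parp1. Falls numbered 2 when Sfpq replicate 2 or 3 was left out, and rises over all genes then numbered 1564 or 1657. For 19 genes all 3 Sfpq libraries lay above all 3 Luc libraries and for 6 they lay below, against 28.2% and 24.7% of all genes tested.

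**Figure D1:**
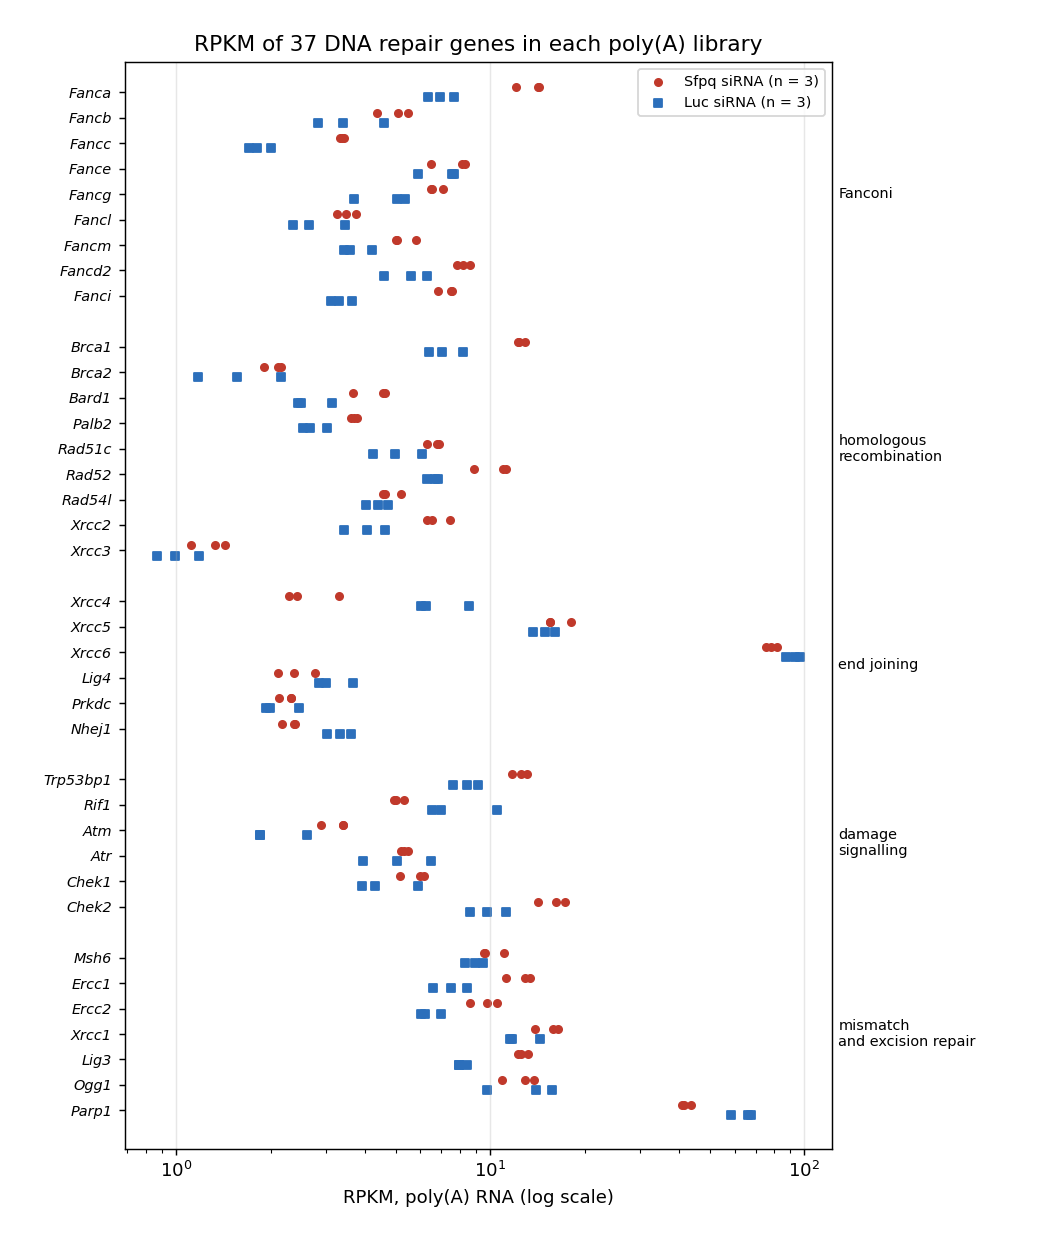
Each point is the RPKM of a gene in 1 poly(A) library, on a log axis, with the 3 Sfpq siRNA libraries (circles) drawn above the 3 Luc siRNA libraries (squares). Levels ran from about 1 RPKM for Xrcc3 to over 75 RPKM for Xrcc6, and the circles lie right of the squares for 19 genes and left of them for 6.

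The genes were expressed at low to middling levels. Mean RPKM ran from 1.29 (Xrcc3) to 78.5 (Xrcc6) in Sfpq libraries, with a median of 6.70, and from 1.01 (Xrcc3) to 92.6 (Xrcc6) in Luc libraries, with a median of 5.16. Xrcc6, a subunit of the Ku ring that binds broken ends, and Parp1, an abundant sensor of strand breaks, stood well above the rest, and Xrcc5, the other Ku subunit, had the next highest mean in both groups.

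On the log2(RPKM + 0.5) scale the 3 largest rises were those of Fanci, Fanca and Brca1 and the largest fall was that of Xrcc4. In the ratio of mean RPKM, Fancc (1.84-fold) stood above Brca1 (1.74-fold). The 250 bases before their start sites are shown because these genes mark the ends of the range on the log2 scale. They are from RefSeq on GRCm38.p6, 5′ to 3′ along the gene's strand, with the word CCAAT in capitals, and lie at chr7:79392088-79392337, plus strand (Fanci), chr8:123318577-123318826, minus strand (Fanca), chr11:101551956-101552205, minus strand (Brca1) and chr13:90089609-90089858, minus strand (Xrcc4). The reads themselves were aligned to another build, mm9, per the submitters' processing notes.
Fanci: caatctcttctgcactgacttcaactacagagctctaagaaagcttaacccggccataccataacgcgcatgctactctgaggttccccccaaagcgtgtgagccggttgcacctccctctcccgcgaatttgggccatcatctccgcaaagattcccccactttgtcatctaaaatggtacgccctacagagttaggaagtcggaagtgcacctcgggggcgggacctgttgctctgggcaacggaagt
Fanca: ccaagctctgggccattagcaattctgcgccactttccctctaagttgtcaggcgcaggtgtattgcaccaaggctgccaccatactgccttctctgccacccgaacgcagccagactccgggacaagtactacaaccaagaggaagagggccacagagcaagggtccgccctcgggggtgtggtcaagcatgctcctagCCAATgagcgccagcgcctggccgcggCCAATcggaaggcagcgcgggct
Brca1: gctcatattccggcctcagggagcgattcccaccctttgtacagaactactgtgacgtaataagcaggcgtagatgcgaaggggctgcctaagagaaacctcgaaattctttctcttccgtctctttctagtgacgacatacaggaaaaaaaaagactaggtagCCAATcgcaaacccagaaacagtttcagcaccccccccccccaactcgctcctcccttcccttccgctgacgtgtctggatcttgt
Xrcc4: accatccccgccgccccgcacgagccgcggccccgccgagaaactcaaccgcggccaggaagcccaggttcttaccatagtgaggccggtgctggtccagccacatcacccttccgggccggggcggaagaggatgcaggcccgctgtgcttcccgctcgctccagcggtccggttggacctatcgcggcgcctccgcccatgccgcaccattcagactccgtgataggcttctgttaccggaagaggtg

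Short words were searched on both strands in this window. They were CCAAT, the cell-cycle homology word TTTGAA, and the E2F-like words TTTCGCGC, TTTGGCGC, TTTCCCGC and TTTGCCGC, which resemble sites of the E2F factors of S phase entry, and no word contains another. The promoter of Fanca held CCAAT at 50 and 23 bases before the start, that of Brca1 held it at 86 bases, and those of Fanci and Xrcc4 held none of the words. Of the 33 genes with an entry, 15 (45.5%) held CCAAT, 1 (3.03%) held TTTGAA and 5 (15.2%) held an E2F-like word. The shares were 41.8%, 12.5% and 4.17% over 9246 tested genes with an entry, and 37.5%, 18.3% and 2.16% over all 27025 genes with an entry. The 5 genes with an E2F-like word were Bard1, Brca2, Chek2, Fancg and Xrcc6. Of these, Bard1, Chek2 and Fancg rose, and Brca2 and Xrcc6 did not pass. A match in letters shows no binding, and no test was made.

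Fanconi genes rose in 6 of 9 cases and 0 fell (limma; 7 higher and 0 lower at unadjusted p under 0.05), with a median log2 fold change of 0.49. These shares of 66.7% and 0% stand beside 21.3% and 18.6% over all genes tested. Both parts of the clamp that the core complex modifies rose. Fanci had 6.80, 7.56 and 7.50 RPKM in the Sfpq libraries, against 3.11, 3.30 and 3.63 RPKM in the Luc libraries. The lowest Sfpq value lies well above the highest Luc value, and the rise was the largest of the set (log2 fold change 1.02, SE 0.11, limma adjusted p = 0.000129). Its partner Fancd2 rose too, with 7.87, 8.61 and 8.19 RPKM in Sfpq libraries, against 5.60, 4.61 and 6.28 RPKM in Luc libraries (0.55, SE 0.13, limma adjusted p = 0.0079).

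Of the 7 genes of the core complex and its loading factor, 4 rose. Fanca, a scaffold subunit, rose 1.93-fold, with 12.1, 14.3 and 14.2 RPKM in Sfpq libraries and 6.94, 7.68 and 6.33 RPKM in Luc libraries (log2 fold change 0.90, SE 0.12, limma adjusted p = 0.00037). Fancg, which binds Fanca directly, had 6.54, 6.49 and 7.07 RPKM in Sfpq libraries, against 5.34, 5.04 and 3.68 RPKM in Luc libraries (0.49, limma adjusted p = 0.0222). Its groups do not overlap, but the call ended with no filter on low values (limma adjusted p = 0.052) and when any of the 3 Sfpq replicates was left out (0.0574, 0.0624 and 0.0859 for replicates 1, 2 and 3). Fancc had 3.34, 3.43 and 3.38 RPKM in Sfpq libraries, against 2.00, 1.70 and 1.81 RPKM in Luc libraries, so that its Sfpq values are nearly equal (0.73, SE 0.11, limma adjusted p = 0.000907). Fance, which bridges the core complex to its substrate, had 8.30, 8.16 and 6.46 RPKM in Sfpq libraries and 7.69, 7.55 and 5.91 RPKM in Luc libraries, and the groups overlap in part, with 2 Sfpq values above all Luc values and Luc replicate 3 below all Sfpq values (0.11, limma adjusted p = 0.569).

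Fancl, the ubiquitin ligase itself, averaged 3.50 ± 0.242 RPKM in Sfpq and 2.82 ± 0.562 RPKM in Luc libraries (SD, n = 3; log2 fold change 0.28, limma adjusted p = 0.144). Fancb, which holds Fancl in the complex, averaged 4.97 ± 0.580 RPKM in Sfpq and 3.61 ± 0.897 RPKM in Luc libraries (SD, n = 3; 0.43, limma adjusted p = 0.0652). Neither passed, and both passed as higher without Luc replicate 3, the highest Luc library for each (limma adjusted p = 0.01001 for Fancl and 0.00224 for Fancb). Fancm, a DNA translocase that brings the complex to chromatin, had 5.04, 5.80 and 5.03 RPKM in Sfpq libraries, against 3.43, 3.57 and 4.20 RPKM in Luc libraries (0.45, SE 0.12, limma adjusted p = 0.0152). Its call ended without Sfpq replicate 2 (limma adjusted p = 0.0805) or Luc replicate 1 (0.0714).

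**Figure D2:**
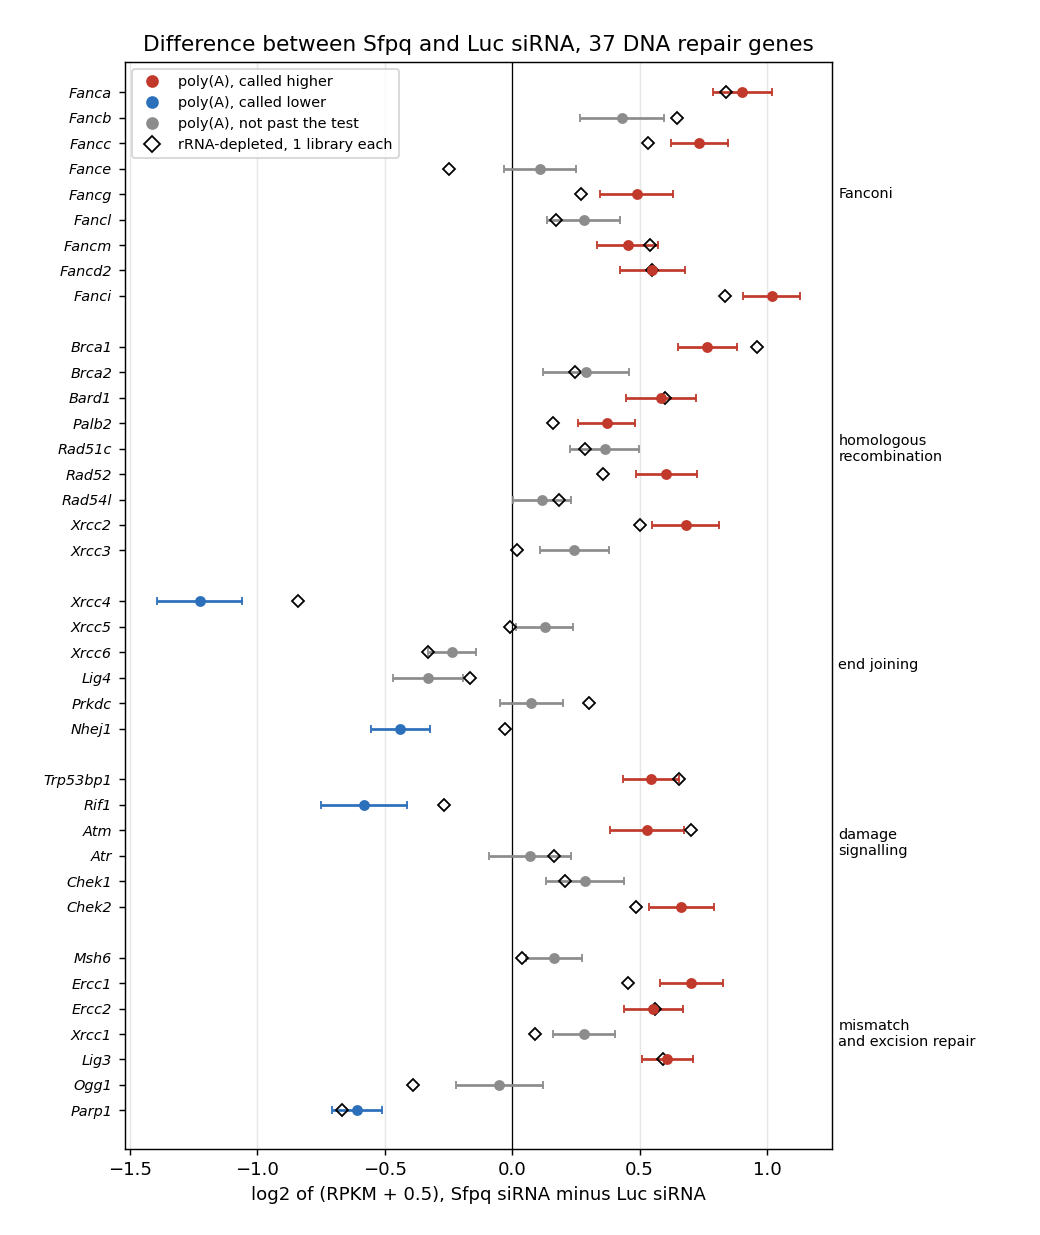
Filled points are log2 fold changes, Sfpq siRNA minus Luc siRNA, in poly(A) RNA with their limma SE (3 libraries per group), coloured by call, and open diamonds are the log2 ratios of the single rRNA-depleted libraries. Fanconi and recombination genes lie right of 0 in poly(A) RNA, and 4 of the 6 end joining genes lie left of it.

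Homologous recombination genes rose in 5 of 9 cases and 0 fell (limma; 6 higher and 0 lower at unadjusted p under 0.05), with a median log2 fold change of 0.37. These shares of 55.6% and 0% stand beside 21.3% and 18.6% over all genes tested. The largest rise was that of Brca1, which promotes resection of broken ends. It had 12.4, 12.9 and 12.3 RPKM in Sfpq libraries, against 7.05, 6.37 and 8.18 RPKM in Luc libraries (log2 fold change 0.77, SE 0.12, limma adjusted p = 0.000874). Its partner Bard1, with which it forms a ubiquitin ligase, had 3.67, 4.61 and 4.57 RPKM in Sfpq libraries, against 2.50, 2.44 and 3.13 RPKM in Luc libraries (0.58, SE 0.14, limma adjusted p = 0.00821). Both genes of this pair were separated between the groups. Palb2, which joins Brca1 to Brca2, had 3.69, 3.60 and 3.77 RPKM in Sfpq libraries, against 2.68, 2.53 and 3.02 RPKM in Luc libraries (0.37, limma adjusted p = 0.0266). That call was the weakest of the rises: with 1 library left out it held only without Luc replicate 3, and limma adjusted p was between 0.0587 and 0.103 without any of the others. Brca2, a mediator of strand exchange, had 1.91, 2.12 and 2.17 RPKM in Sfpq libraries, against 1.56, 1.17 and 2.16 RPKM in Luc libraries, with the third Luc library level with the highest Sfpq library (0.29, limma adjusted p = 0.202, and 0.0127 without Luc replicate 3).

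Among the other recombination genes, Xrcc2 and Rad52 rose. Xrcc2, which acts in strand exchange, had 7.42, 6.55 and 6.30 RPKM in Sfpq libraries, against 4.06, 3.43 and 4.63 RPKM in Luc libraries (log2 fold change 0.68, SE 0.13, limma adjusted p = 0.00312). Rad52, which anneals single strands, had 11.2, 8.86 and 11.0 RPKM in Sfpq libraries, against 6.69, 6.84 and 6.29 RPKM in Luc libraries (0.60, SE 0.12, limma adjusted p = 0.00366). Rad51c and Xrcc3, which form a complex with each other, did not pass. Rad51c had 6.88, 6.76 and 6.28 RPKM in Sfpq libraries, all above the 4.99, 4.22 and 6.09 RPKM of the Luc libraries (0.36, limma adjusted p = 0.0605, and 0.00285 without Luc replicate 3). Xrcc3, the least abundant gene of the set, averaged 1.29 ± 0.163 RPKM in Sfpq and 1.01 ± 0.158 RPKM in Luc libraries (SD, n = 3; 0.24, limma adjusted p = 0.178). Rad54l, a DNA-dependent motor of strand exchange, averaged 4.79 ± 0.365 RPKM in Sfpq and 4.38 ± 0.355 RPKM in Luc libraries (SD, n = 3), and its groups overlap (0.12, limma adjusted p = 0.449).

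Of 6 end joining genes, 0 rose and 2 fell (limma; 0 higher and 4 lower at unadjusted p under 0.05), with a median log2 fold change of -0.28. The shares over all genes tested were 21.3% higher and 18.6% lower. Of 10 end joining genes outside the set, 4 rose and 1 fell, with a median of 0.24. The falls of the set lay in the complex that seals the ends. Xrcc4, the scaffold of that complex, had 2.29, 3.29 and 2.43 RPKM in Sfpq libraries, against 6.25, 6.03 and 8.54 RPKM in Luc libraries. All its Sfpq values lie far below all its Luc values, and its change was the largest of the set in either direction (log2 fold change -1.23, SE 0.17, limma adjusted p = 0.000484). Nhej1, which forms filaments with Xrcc4, had 2.38, 2.38 and 2.17 RPKM in Sfpq libraries, against 3.61, 3.02 and 3.31 RPKM in Luc libraries (-0.44, SE 0.12, limma adjusted p = 0.0147). Its groups do not overlap, although the call ended without Sfpq replicate 2 (limma adjusted p = 0.0502), Sfpq replicate 3 (0.0723) or Luc replicate 1 (0.0742). Lig4, the ligase that Xrcc4 stabilises, had 2.11, 2.38 and 2.77 RPKM in Sfpq libraries, all below the 3.01, 2.84 and 3.67 RPKM of the Luc libraries, and did not pass (-0.33, limma adjusted p = 0.083). It passed as lower with median-ratio scaling (limma adjusted p = 0.0382), which gave 4 falls in all, and with quantile normalization (0.0369). Falls numbered 1 when Sfpq replicate 2, Sfpq replicate 3 or Luc replicate 1 was left out.

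None of the genes that recognise ends passed. Xrcc6 had 81.9, 78.3 and 75.3 RPKM in Sfpq libraries, all below the 93.4, 87.6 and 96.8 RPKM of the Luc libraries (log2 fold change -0.24, SE 0.09, limma adjusted p = 0.07). It passed as lower with no filter on low values (limma adjusted p = 0.0491), with median-ratio scaling (0.0463) and without Luc replicate 3 (0.0474). The other Ku subunit, Xrcc5, averaged 16.3 ± 1.48 RPKM in Sfpq and 14.9 ± 1.20 RPKM in Luc libraries (SD, n = 3), with overlapping groups (0.13, limma adjusted p = 0.391). Prkdc, the kinase that Ku recruits, averaged 2.26 ± 0.107 RPKM in Sfpq and 2.13 ± 0.287 RPKM in Luc libraries (SD, n = 3; 0.07, limma adjusted p = 0.661).

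**Figure D3:**
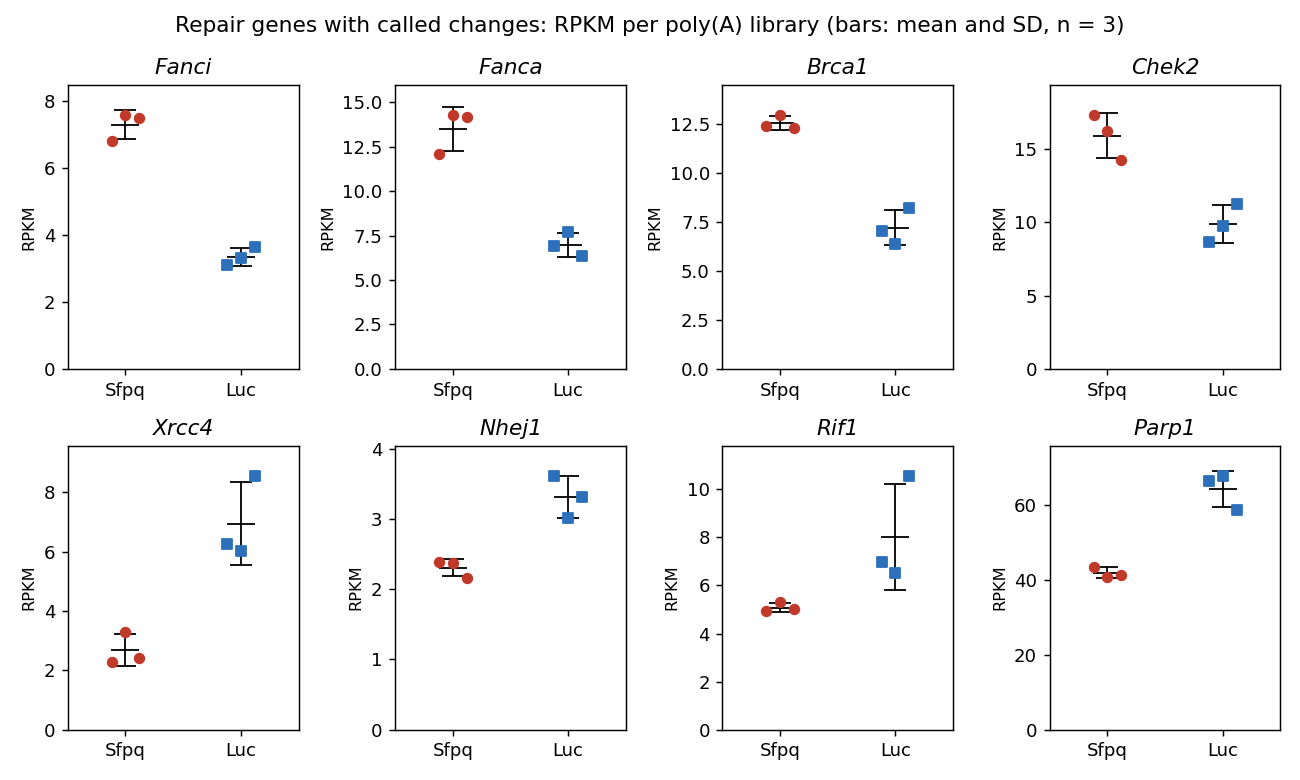
RPKM of 8 repair genes with called changes in each poly(A) library, Sfpq siRNA left and Luc siRNA right, with the mean and SD of 3 libraries and every axis starting at 0. In Fanci, Fanca, Brca1 and Chek2 all Sfpq points lie above the Luc points, and in Xrcc4, Nhej1, Rif1 and Parp1 all lie below, with 1 high Luc point (replicate 3) in Rif1.

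Damage signalling genes rose in 3 of 6 cases (50.0%) and fell in 1 (16.7%), against 21.3% and 18.6% of all genes tested. Their median log2 fold change was 0.41. Chek2, an effector kinase downstream of Atm, had 17.3, 16.2 and 14.2 RPKM in Sfpq libraries, against 8.64, 9.78 and 11.2 RPKM in Luc libraries (log2 fold change 0.66, SE 0.13, limma adjusted p = 0.00305). Atm, the kinase that double-strand breaks activate, had 2.90, 3.39 and 3.40 RPKM in Sfpq libraries, against 1.84, 1.85 and 2.60 RPKM in Luc libraries (0.53, limma adjusted p = 0.0167). Its groups do not overlap, and the call ended without Sfpq replicate 2 (limma adjusted p = 0.0698), Sfpq replicate 3 (0.0664) or Luc replicate 1 (0.0699). The kinases of the branch that senses single-stranded DNA did not pass: Atr averaged 5.34 ± 0.141 RPKM in Sfpq and 5.16 ± 1.28 RPKM in Luc libraries (SD, n = 3; 0.07, limma adjusted p = 0.752). Chek1, its effector, averaged 5.77 ± 0.529 RPKM in Sfpq and 4.70 ± 1.04 RPKM in Luc libraries (SD, n = 3; 0.29, limma adjusted p = 0.165, and 0.00604 without Luc replicate 3).

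Trp53bp1 and Rif1, whose proteins act together to protect broken ends from resection, moved in opposite directions. Trp53bp1 had 11.8, 13.1 and 12.5 RPKM in Sfpq libraries, against 8.42, 7.64 and 9.16 RPKM in Luc libraries (log2 fold change 0.54, SE 0.11, limma adjusted p = 0.00392). Rif1 had 4.93, 5.30 and 5.01 RPKM in Sfpq libraries, against 6.99, 6.51 and 10.6 RPKM in Luc libraries (-0.58, SE 0.17, limma adjusted p = 0.0213). The Sfpq values of Rif1 lie close together below all Luc values, of which the third is far above the other two. The Rif1 call ended with no filter on low values (limma adjusted p = 0.0582) and when any Sfpq replicate was left out (0.0725, 0.0554 and 0.0650 for replicates 1, 2 and 3), which left 0 falls in damage signalling, and held when any Luc replicate was left out. Without Luc replicate 3 the log2 fold change of Rif1 was -0.38.

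Mismatch and excision repair genes rose in 3 of 7 cases (42.9%) and fell in 1 (14.3%), against 21.3% and 18.6% of all genes tested. Their median log2 fold change was 0.28. In nucleotide excision repair, which removes bulky damage, both genes of the set rose. Ercc1, part of the nuclease that cuts on the 5′ side, had 13.4, 12.9 and 11.2 RPKM in Sfpq libraries, against 7.52, 8.41 and 6.59 RPKM in Luc libraries (log2 fold change 0.70, SE 0.12, limma adjusted p = 0.00202). Ercc2, a helicase of the transcription factor TFIIH, had 8.64, 10.5 and 9.80 RPKM in Sfpq libraries, against 6.21, 6.96 and 6.04 RPKM in Luc libraries (0.55, SE 0.12, limma adjusted p = 0.00486). Msh6, which recognises mispaired bases, had 11.1, 9.62 and 9.57 RPKM in Sfpq libraries, just above the 8.94, 8.34 and 9.52 RPKM of the Luc libraries, and did not pass (0.17, limma adjusted p = 0.257).

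Base excision and single-strand break repair held 1 fall and 1 rise. Parp1, which marks strand breaks with poly(ADP-ribose), fell, with 43.5, 40.7 and 41.3 RPKM in Sfpq libraries, against 66.3, 67.7 and 58.6 RPKM in Luc libraries (log2 fold change -0.61, SE 0.10, limma adjusted p = 0.00125). Lig3, the ligase that seals such breaks, rose, with 13.2, 12.5 and 12.2 RPKM in Sfpq libraries, against 7.97, 7.94 and 8.45 RPKM in Luc libraries (0.61, SE 0.10, limma adjusted p = 0.00126). Groups did not overlap for either gene. Xrcc1, the scaffold between them, averaged 15.4 ± 1.32 RPKM in Sfpq and 12.6 ± 1.60 RPKM in Luc libraries (SD, n = 3; 0.28, limma adjusted p = 0.0916, and 0.0348 without Luc replicate 2). Ogg1, the glycosylase that removes oxidised guanine, averaged 12.5 ± 1.48 RPKM in Sfpq and 13.2 ± 3.05 RPKM in Luc libraries (SD, n = 3), with Luc replicate 3 below all other libraries (-0.05, limma adjusted p = 0.836).

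The second comparison set the same genes side by side in RNA depleted of rRNA, with 1 library per group and so no replicate check and no test. Of the 37 genes, 28 had a log2 ratio above 0, as did 48.3% of 11386 genes that averaged 0.5 RPKM or more there, and the median ratio was 0.27 for the repair genes and -0.02 for all. By at least 1.5-fold, 8 genes were higher and 2 lower, against 7.86% and 13.3% of all genes. The direction matched poly(A) RNA for all 21 called genes, 17 higher and 4 lower. Of the 17, 7 were at least 1.5-fold higher, and of the 4, 2 were at least 1.5-fold lower. How many of all called genes keep their direction was not counted, so the match cannot be read as particular to repair genes. Brca1 had 13.1 RPKM in the Sfpq and 6.49 RPKM in the Luc library (log2 ratio 0.96), the highest ratio of the set. Next came Fanca and Fanci (both 0.84), with Fanca at 7.96 RPKM in the Sfpq and 4.22 RPKM in the Luc library. Xrcc4 had 2.08 RPKM in the Sfpq and 4.12 RPKM in the Luc library (-0.84), and Parp1 had 29.5 RPKM in the Sfpq and 47.1 RPKM in the Luc library (-0.67). Those were the 2 genes lower by at least 1.5-fold.

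Nhej1 had 1.64 RPKM in the Sfpq and 1.69 RPKM in the Luc library (log2 ratio -0.03), Palb2 had a ratio of 0.16 and Rif1 one of -0.27. Fancb, which did not pass in poly(A) RNA, had 4.32 RPKM in the Sfpq and 2.58 RPKM in the Luc library (0.65). Atm, Chek2 and Trp53bp1 had ratios of 0.70, 0.49 and 0.66. Fance (-0.25), whose poly(A) values overlapped, and Ogg1 (-0.39) lay below 0. Whether the smaller ratios of Nhej1 and Palb2 differ from those in poly(A) RNA was not tested.

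Transcript rows of the same gene and genes that overlap can share reads, which limits what a row shows. Of the 9 repair genes with several rows, Fancc, Fancg, Rad52 and Ercc1 were called by the row used. Their other rows had log2 fold changes close to it: 0.73 and 0.68 beside 0.73 for Fancc, 0.51 beside 0.49 for Fancg, between 0.59 and 0.69 beside 0.60 for Rad52 and 0.65 beside 0.70 for Ercc1. Several called genes overlap another measured gene on the chromosome (RefSeq, GRCm38.p6), and the counting is not stated to use strand. Partners that also rose were Zfp276 beside Fanca (0.53, limma adjusted p = 0.0054), Polg beside Fanci (0.56, 0.0061), Tubgcp4 beside Trp53bp1 (0.73, 0.00338) and Klc3 beside Ercc2 (0.73, 0.0121). Map1a, which also overlaps Trp53bp1, did not pass (-0.19, limma adjusted p = 0.181). Cd3eap, which overlaps Ercc1, fell (-0.71, limma adjusted p = 0.0015), and Rffl, which overlaps Lig3, did not pass (0.01, 0.959). Among genes that were not called, Fancb overlaps Mospd2, which rose (0.82, limma adjusted p = 0.000854), and Xrcc6 overlaps Desi1, which fell (-1.04, 4.28e-05). Lrrc41 beside Rad54l rose (0.43, limma adjusted p = 0.0229) and Klc1 beside Xrcc3 fell (-0.37, 0.0197). Fbxo11 beside Msh6 (0.05, limma adjusted p = 0.868) and Camk1 beside Ogg1 (-0.38, 0.0517) did not pass.

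Repair genes outside the set, listed with earlier results of these data known, were called higher more often than lower. Of 116 tested, 39 rose, 11 fell and 66 did not pass, which is 33.6% and 9.48% against 21.3% and 18.6% of all genes tested, and their median log2 fold change was 0.21. Leaving out Sfpq replicate 2 or 3 gave 22 or 24 rises, and leaving out Luc replicate 3 gave 64. By route, 7 of 16 Fanconi genes rose and 2 fell, 10 of 32 recombination genes rose and 5 fell, 4 of 10 end joining genes rose and 1 fell, 7 of 17 signalling genes rose and 0 fell (limma; 0 lower at unadjusted p under 0.05), and 11 of 41 mismatch and excision repair genes rose and 3 fell.

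Recombination genes outside the set held the largest fall of the wider list. Rad51b, which acts in homologous recombination, had 0.106, 0.324 and 0.413 RPKM in Sfpq libraries, against 1.91, 1.78 and 2.27 RPKM in Luc libraries (log2 fold change -1.69, SE 0.17, limma adjusted p = 8.66e-05). Its Sfpq values lie near 0, where the pseudocount understates the fall. Zswim7, a recombination factor, fell (-0.85, limma adjusted p = 0.000284). Rad51ap1, which promotes strand pairing, rose (0.60, limma adjusted p = 0.00771).

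In the Fanconi route the nuclease subunit Eme1 (0.56) and the ubiquitin ligase Rfwd3 (0.56) rose, and the accessory DNA-binding subunits Cenpx (-0.70) and Faap24 (-0.61) fell (limma adjusted p between 0.000597 and 0.00508). In end joining Tdp2 (0.74) and Aptx (0.49), which clean blocked ends, rose (limma adjusted p = 0.00483 and 0.00539). Polq, the polymerase of the alternative route, fell by a margin that rested on every library (-0.36, limma adjusted p = 0.0489, and between 0.0612 and 0.136 with any 1 library left out). The Polq call also ended with pseudocount 0.1 (limma adjusted p = 0.0521), with no filter (0.0799), with a higher minimum mean of 2 RPKM (0.0507) and with the replicate number as a block (0.0541). In signalling, Rad9a, part of the checkpoint clamp, had 20.4, 20.8 and 21.1 RPKM in Sfpq libraries, against 9.85, 9.33 and 8.88 RPKM in Luc libraries (1.11, SE 0.10, limma adjusted p = 3.45e-05), and the fork protein Timeless rose (0.89, limma adjusted p = 0.000341). In excision repair the glycosylases Mutyh (0.75) and Neil3 (0.66) rose (limma adjusted p = 0.0077 and 0.00211). Mutyh had 0.840, 1.57 and 1.28 RPKM in Sfpq libraries, against 0.603, 0.442 and 0.513 RPKM in Luc libraries. Its Luc values lie near the 0.5 RPKM of the filter and the pseudocount, and it did not average 0.5 RPKM in rRNA-depleted RNA. The damage recognition factor Rad23b fell (-0.98, limma adjusted p = 0.000474), as did the glycosylase Mpg (-0.58, limma adjusted p = 0.016), whose call ended without Sfpq replicate 2 (0.0532) or 3 (0.0572).

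**Figure D4:**
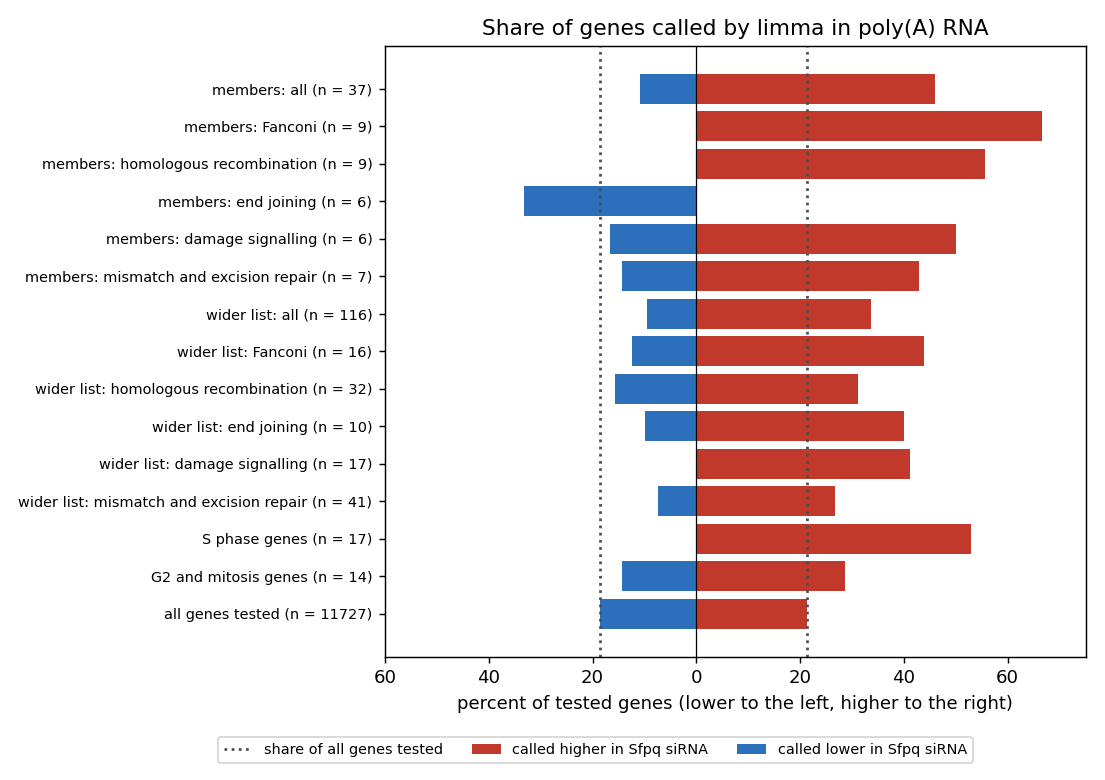
Bars give the percent of tested genes that limma called higher (right) or lower (left) in Sfpq siRNA than in Luc siRNA, for the repair genes by route (members), repair genes outside the set (wider list), S phase and mitotic genes, and all genes tested (dotted lines). Fanconi and recombination members reach 66.7% and 55.6% higher with 0 lower, while end joining members have 0 higher and 33.3% lower.

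Genes of DNA replication were set beside the repair genes, since recombination is mostly used in S and G2 phase. Of 17 S phase genes, 9 (52.9%) rose and 0 fell, against 21.3% and 18.6% of all genes tested (limma; 11 higher and 1 lower at unadjusted p under 0.05), with a median log2 fold change of 0.36. Without Luc replicate 2 or 3 there was 1 fall, and with any 1 library left out the S phase rises numbered 7 to 11. Mcm3, a subunit of the replicative helicase, had 76.3, 59.3 and 47.8 RPKM in Sfpq libraries, against 35.4, 29.1 and 21.5 RPKM in Luc libraries (1.08, SE 0.20, limma adjusted p = 0.00289). Rrm2, which makes deoxynucleotides, had 74.5, 76.6 and 75.5 RPKM in Sfpq libraries, against 47.5, 45.2 and 53.1 RPKM in Luc libraries (0.63, limma adjusted p = 0.000957). Of 14 genes of G2 and mitosis, 4 (28.6%) rose and 2 (14.3%) fell, against 21.3% and 18.6% of all genes tested, with a median of 0.20. The kinetochore genes Bub1 (0.67) and Cenpf (0.61) rose, and Ccna2 (-0.66) and the proliferation marker Mki67 (-0.52) fell (limma adjusted p between 0.00302 and 0.0202). The Bub1 call ended when 1 library was left out, namely the first (limma adjusted p = 0.0821) or second (0.0624) Sfpq library or the first (0.0704) or second (0.0528) Luc library, and with no filter on low values (0.0596), and the Mki67 call without Sfpq replicate 1 (0.0536). The rises of G2 and mitosis genes numbered 2 when replicate 1 or 2 of either group was left out and 7 without Luc replicate 3, and the falls numbered 1 without Sfpq replicate 1. The part of S phase genes in the repair gene values was not tested.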

How the data were processed

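RNA was sequenced on the Ion Proton system, per the labels' protocols. The authors deposited RPKM per RefSeq transcript, in a file for each library, per the file headers. The submitters' processing notes name TopHat2 2.0.10 and mm9. How RPKM was computed, with which annotation, strand setting and treatment of multiply matching reads, is not given in the sources used here. Of 30978 rows, 30507 were named through a RefSeq gene table of GRCm38.p6, used for names, overlaps and promoters. RPKM holds no read count, so precision comes from replicates. Relative depth came from low values, whose ratios were ratios of whole numbers up to 20 for between 66.1% and 77.1% of pairs (within 0.002, natural log).

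For poly(A) RNA, limma 3.58.1 (R 4.3.3, trended prior) was fitted to log2(RPKM + 0.5) of all genes averaging 0.5 RPKM or more over 6 libraries, with Benjamini-Hochberg adjustment. This scale understates changes of low genes. The rRNA-depleted libraries were described by ratios on that scale. Python 3.11.15, pandas 2.3.3, numpy 2.4.6 and matplotlib 3.10.9 made tables and figures. Groups and replicate numbers come from sample titles, and 1 Sfpq description gives another number than its title. The 37 genes, the wider lists and the tests were chosen with earlier results of these data known. Every member is named, with the 2 largest called changes per direction of each other list, of which 1 gene is not reported here. Overlapping genes were named for their position. Alternatives are given in the closing section.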

Additional observations from a re-analysis of the deposited data

How the results depend on the processing

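All 21 called repair genes kept their direction under every alternative in which they were tested: pseudocounts 0.1 and 1, no filter, a minimum mean of 2 RPKM (which leaves out Brca2 and Xrcc3, neither called), scaling by median ratios, quantile normalization, limma with no trend, summed rows, a replicate block and omission of any poly(A) library. Of the 21, 15 kept their call without any single library. The signs that turned were of genes that did not pass, with log2 fold changes between -0.004 and 0.219 for Fance with a library left out (-0.004 without Luc replicate 3), between -0.092 and 0.236 for Atr (-0.092 without Luc replicate 2) and between -0.242 and 0.087 for Ogg1 (0.042 without Sfpq replicate 3, 0.004 without Luc replicate 1 and 0.087 without Luc replicate 2). The recombination median was 0.584 at a minimum mean of 2 RPKM, where 2 of its genes are not tested. Median-ratio scaling gave 4 end joining falls and an S phase median of 0.317. With no filter 0 damage signalling genes fell (limma; Rif1 had adjusted p = 0.0582), and with pseudocount 1 the rRNA-depleted genes at least 1.5-fold higher numbered 5. S phase falls numbered 1 with median-ratio scaling, quantile normalization or the replicate block. The cause was not tested.

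With 1 library left out, rises over all genes numbered 1564 to 3600 and falls 1656 to 2658. Rises among the repair genes numbered 13 to 22 and falls 2 to 5, with medians of 0.323 to 0.442. Rises numbered 4 to 8 for Fanconi, 4 to 7 for recombination and 7 to 11 for S phase genes. They numbered 2 to 4 for damage signalling and 3 to 4 for mismatch and excision repair. Medians ran from 0.439 to 0.597 for Fanconi genes, 0.323 to 0.486 for recombination genes, 0.230 to 0.382 for mismatch and excision repair and 0.290 to 0.388 for S phase genes. End joining falls numbered 1 to 3, damage signalling falls 0 to 1, S phase falls 0 to 1, rises in the wider list 22 to 64, and rises and falls of G2 and mitosis genes 2 to 7 and 1 to 2.

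Sfpq and Luc libraries with the same number deviated from their group means with correlations of 0.327, -0.035 and 0.157, not every library correlated best with its own number, and the numbers were not taken as pairs. The replicate block gave 2681 rises and 2309 falls over all genes, and changed the call of 1 of the 37 genes, Fancb (limma adjusted p = 0.0310), and of Polq among the other named genes. Read depth is unknown, so no limit from counting error can be given.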

Other observations

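A pair of partner genes outside the set, singled out after their values were seen, moved apart. Cenps, whose protein forms a DNA-binding histone-fold complex with that of Cenpx and assists Fancm, had 30.7, 34.6 and 31.5 RPKM in Sfpq libraries, against 23.7, 21.6 and 20.8 RPKM in Luc libraries (log2 fold change 0.54, SE 0.10, limma adjusted p = 0.00284). Cenpx had 16.9, 16.5 and 17.5 RPKM in Sfpq libraries, against 29.6, 28.6 and 25.7 RPKM in Luc libraries (-0.70, SE 0.10, limma adjusted p = 0.000597). The single rRNA-depleted libraries gave log2 ratios of 0.46 for Cenps and -0.73 for Cenpx. Swsap1 and Zswim7, whose proteins also bind each other, did likewise, with 0.47 (limma adjusted p = 0.0117) for Swsap1 and -0.85 (limma adjusted p = 0.000284) for Zswim7. All 4 calls held with any 1 library left out. Whether the members of a pair differ in response was not tested.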
